A study of Drosophila melanogaster with 48 samples.

Results

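The stage 2 embryos of ZI470, a Drosophila melanogaster line from Siavonga, Zambia, were compared with those of the other Zambia lines, ZI050, ZI094 and ZI160. The members were all libraries labelled with this line and stage, 3 of the 48 in the series, and they were set against the 9 stage 2 libraries of the other 3 lines. Each library was made from 1 whole embryo. The authors describe stage 2 as a stage when all RNA in the embryo is maternal, which was not tested here. Late stage 5 embryos, also collected from each line, have activated their own genome. The groups of embryos are lines, and no treatment was given. Mothers were 3 to 10 days old and were kept at 25 degrees on cornmeal food at a controlled density. Every line descends from 1 wild female, so a difference between lines cannot be extended to the population. The sex of the stage 2 embryos is unknown, while the authors state that they chose XY embryos at stage 5. Sister embryos here means embryos of 1 line, since no label ties 2 embryos to 1 mother.

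In the Drosophila ovary the nurse cells transcribe the maternal genome and load the oocyte with mRNA and ribosomes. The embryo lives on this store through its first nuclear divisions. At the maternal-to-zygotic transition many maternal transcripts are degraded and zygotic transcription starts, first at a few short genes and later across the genome. The maternal RNA of an embryo is therefore made by the genotype of its mother.

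Total counts of the 12 Zambia stage 2 embryos lay between 25090803 and 30329144, with 8586 to 8938 genes counted. A floor of 3 counts stands for at most 0.122 CPM (CPM is the count relative to library size, normalised by TMM over the 24 stage 2 embryos). ZI470 replicate 1 had 28920302 counts. Its share of ribosomal RNA was 1.53% and its mitochondrial share 1.98%, both inside the range of the other embryos. The maternal marker osk, which organises the germ plasm, had 1292, 986 and 1081 CPM in ZI470 replicates 1, 2 and 3, against 870 to 1495 CPM (median 1249) in the other lines. The zygotic marker ftz, a pair-rule gene, had 1.13, 0.952 and 0.749 CPM in the ZI470 embryos, against 0.348 to 0.896 CPM (median 0.534) in the other lines. At stage 5 ftz reached 384 to 402 CPM in the ZI470 embryos, far above any stage 2 embryo described here. The anterior determinant bcd had 150, 298 and 225 CPM in ZI470, against 167 to 282 CPM (median 252) in the other lines. Markers of adult tissues were near 0. The 19 follicle cell and eggshell genes summed to 0.566 CPM in replicate 1, to 0.178 and 0.427 CPM in its sisters and to between 0 and 0.321 CPM in the other lines.

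The embryo labelled ZI470 replicate 1 did not share the departures of its sisters from the Zambia mean. On uncentred log levels it correlated with its sisters at Pearson r = 0.947 and 0.945. All other pairs of Zambia sister embryos at stage 2 correlated at 0.992 to 0.996. After each of 7242 genes was centred on its mean over the 12 embryos, replicate 1 correlated with its sisters at r = -0.10 and -0.03. ZI470 replicates 2 and 3 correlated with each other at 0.83, and sister embryos of the other lines at 0.69 to 0.83. Its correlations with the 9 embryos of the other Zambia lines lay between -0.20 and -0.09, and when genes were centred over all 24 stage 2 embryos it reached at most 0.07 with another Zambia line and -0.08 with a Raleigh line. With the ZI470 embryos of stage 5, over 5807 genes, replicate 1 correlated at -0.04 to 0.01, against 0.21 to 0.41 for its 2 sisters, and at no more than 0.07 with an embryo of another line at that stage. These correlations are across genes, which are not independent, and are given as a description.

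Replicates were also compared by their place between lines. For the 1330 genes called different from the other lines with ZI470 replicates 2 and 3 alone, replicate 1 lay at a median of 11.9% of the way from the level of the other lines to that of its sisters, and it was nearer to its sisters for 24.1% of them. The 9 embryos of the other lines, placed in the same way on genes called from their own 2 sisters, lay at medians of 81.6% to 102% of the way and were nearer to their sisters for 74.7% to 96.2% of the genes. On the genes called for each other line without it, replicate 1 lay at medians of 39.2% of the way to ZI160, 32.6% to ZI050 and 19.4% to ZI094. For the same 1330 genes, replicate 1 was inside the range of the 9 other embryos for 69.3% of the genes higher in its sisters and 68.2% of those lower. It was inside that range for 69.2% of all 7375 genes tested, a share close to both. Set against sampling noise (chi-squared divided by its degrees of freedom, where noise alone gives about 1), the counts of replicate 1 differed from those of its sisters by 109 and 116, against 13.1 to 69.3 for all other pairs of Zambia sister embryos at stage 2. No pair agreed within sampling noise, so no library was counted as a duplicate.

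**Figure D1:**
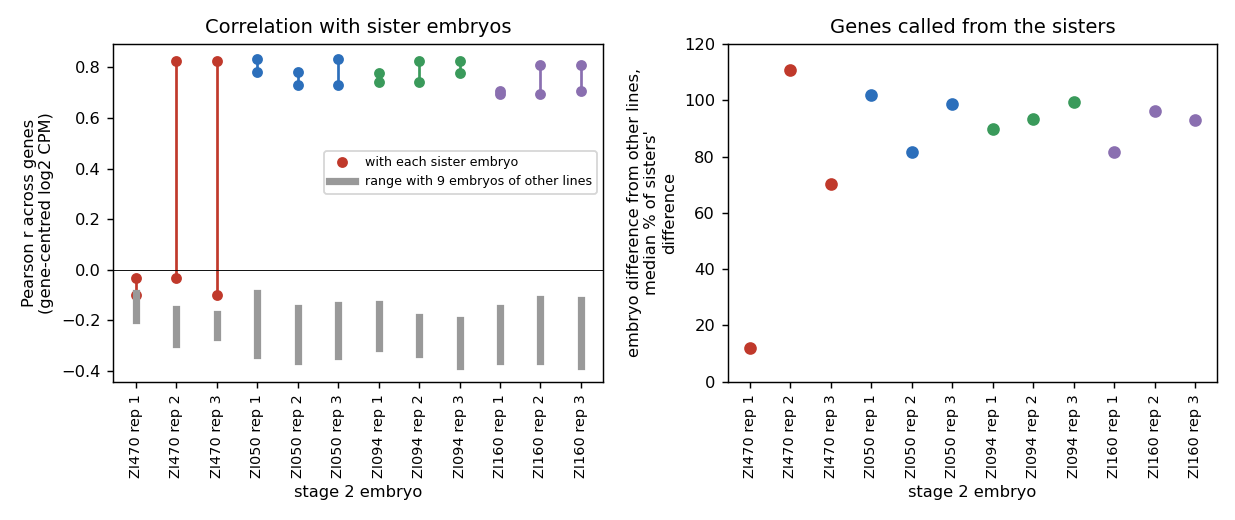
Left, Pearson correlation across 7242 genes (gene-centred log2 CPM) of each stage 2 Zambia embryo with its sister embryos (points joined by a line) and with the 9 embryos of other lines (grey bar). Right, place of each embryo between the other lines (0%) and its sisters (100%), as the median over genes called from the sisters, with replicate 1 of ZI470 left out of all fits. ZI470 replicate 1 stands at 11.9%, against 81.6% to 102% in the other lines.

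Transcripts that set replicate 1 apart were sought among the 5931 genes with a mean of at least 10 CPM. Of these, 166 were more than 2-fold higher and 76 more than 2-fold lower in replicate 1 than the mean of its sisters (log2 of CPM plus 0.5). A further condition was met by 70 of the higher and 50 of the lower, which also lay outside the range of the 11 other Zambia embryos (120 genes, 2.02%). By the same measure 1 to 10 genes set each embryo of the other lines apart. ZI470 replicates 2 and 3, each compared with the other alone, had 2 and 3 such genes. By the range alone, without the fold condition, 1403 genes (23.7%) set replicate 1 apart and 1712 (28.9%) replicate 2. The genes past both conditions in replicate 1 were 1.72% to 2.2% of those on the X, 2L, 2R, 3L and 3R and 8.16% (4 of 49) on chromosome 4. In all 61 windows of the genome with at least 20 genes (2000000 bases each) the median departure of replicate 1 from its sisters was larger than that between the sisters, at 0.124 to 0.304 against 0.055 to 0.157 on the log2 scale. Across genes the departure of replicate 1 correlated with transcript length at Pearson r = 0.09 (Spearman 0.196). With the change from stage 2 to stage 5 in the other Zambia lines it correlated at Pearson r = -0.13 (Spearman -0.228). Between sisters 2 and 3 the Pearson values were 0.31 and 0.24.

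Several genes were abundant in replicate 1 and far lower in the other Zambia stage 2 embryos. The transcript of haf, which encodes a leucine-rich repeat protein (2L, 1555129 to 1609389), had 254 CPM in replicate 1, 0.0656 and 0.0357 CPM in its sisters and at most 0.379 CPM in the other Zambia lines. CG18507 had 218 CPM in replicate 1, 0.0656 and 0.143 CPM in its sisters and at most 0.172 CPM in the other lines. CG7675 had 151 CPM in replicate 1 and no count in its sisters, at least 1414-fold higher with the floor of 3 counts per library. The junction gene bark had 238 CPM in replicate 1, 0.886 and 0.143 CPM in its sisters and at most 0.31 CPM in the other lines. Fas2, an immunoglobulin-family adhesion molecule of neurons, had 178 CPM in replicate 1, 1.48 and 1.43 CPM in its sisters and at most 1.46 CPM in the other lines. Tep4, a thioester-containing protein of innate immunity, had 249 CPM in replicate 1, 2.92 and 2.32 CPM in its sisters and 1.28 to 18.7 CPM in the other lines. Raleigh stage 2 embryos reached 43.4 CPM of Tep4. Replicate 1 stood above all 11 other Zambia embryos for each of these 6 genes, as their choice required.

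The reverse was also seen. CG2187 had 0.813 CPM in replicate 1, 86.4 and 79.4 CPM in its sisters and 39.6 to 81 CPM in the other lines. Jheh2, a juvenile hormone epoxide hydrolase, had 1.2 CPM in replicate 1, 97.4 and 99.9 CPM in its sisters and 89.3 to 152 CPM in the other lines. Mes2, a gene named for expression in mesoderm, had 2.48 CPM in replicate 1, 121 and 133 CPM in its sisters and 129 to 164 CPM in the other lines. SP1029, an aminopeptidase, had 2.16 CPM in replicate 1, against 141 and 109 CPM in its sisters. CG32095 had 0.778 CPM in replicate 1, against 51.9 and 50.2 CPM. The lipoprotein gene apolpp had 0.106 CPM in replicate 1, 33 and 40.8 CPM in its sisters and 0.134 to 21.6 CPM in the other lines. For 5 of these 6 genes the sisters and the other lines shared a high level that replicate 1 lacked, while apolpp also varied among the other lines.

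Genes on in 1 embryo or 1 line only were then counted over all 24 stage 2 embryos, with on set at 5 CPM or more and off under 0.5 CPM. Replicate 1 was the only embryo on for 23 genes. For each other Zambia stage 2 embryo this number was 0. The 8 lines, with replicate 1 left out, had 0 to 3 such genes each, counted where all embryos of the line were on and the embryos of the other lines off. This condition on a line is unlike that on 1 embryo. Among the 23 were pip, the sulfotransferase that sets the dorsoventral axis from the follicle cells, at 47.5 CPM with no count in its sisters, and vri, a bZIP transcription factor of the circadian clock, at 74.8 CPM. CG15544 was at 103 CPM in replicate 1 and Osi2 at 6.86 CPM, where no other Zambia stage 2 embryo had a count of Osi2. Osi2 had no count in any Zambia embryo of stage 5 either. Only melt, a pleckstrin homology domain protein of growth control, and bowl, a zinc finger transcription factor, of the 23 genes reached 5 CPM in the ZI470 embryos of stage 5. The level of melt was 66.3 CPM in replicate 1 and 62.4 to 77.6 CPM in the ZI470 embryos of stage 5, and that of bowl was 12.6 CPM in replicate 1 and 31.5 to 42.5 CPM at stage 5. What gave this library its profile was not tested, and each result below is given with the 3 embryos and with replicates 2 and 3 alone.

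Which genes differ between ZI470 and the other Zambia lines at stage 2 depended on replicate 1. With all 3 embryos 305 of 7242 genes (4.21%) were differentially expressed (DE), 156 higher and 149 lower in ZI470, by edgeR's quasi-likelihood test with an adjusted p under 0.01. With replicates 2 and 3 alone 1330 of 7375 genes (18%) were DE, 479 higher and 851 lower. Both fits share 11 embryos. All but 11 of the 305 genes were also DE without replicate 1, in the same direction. The median biological coefficient of variation was 0.0951 with replicate 1 and 0.0725 without it. The number called with 3 embryos also moved with the other libraries. Leaving out any 1 of the other 11 embryos gave 48 to 94 lower genes in place of 149, and 86 to 101 higher genes in place of 156 when it was ZI470 replicate 2, ZI050 replicate 1 or 3, ZI094 replicate 3 or ZI160 replicate 3. Without replicate 1 the counts were 218 higher and 329 lower when ZI470 replicate 2 was also left out, and 277 higher when ZI470 replicate 3 was. ZI470 then rests on 1 embryo, assumed to vary like those of the other lines.

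**Figure D2:**
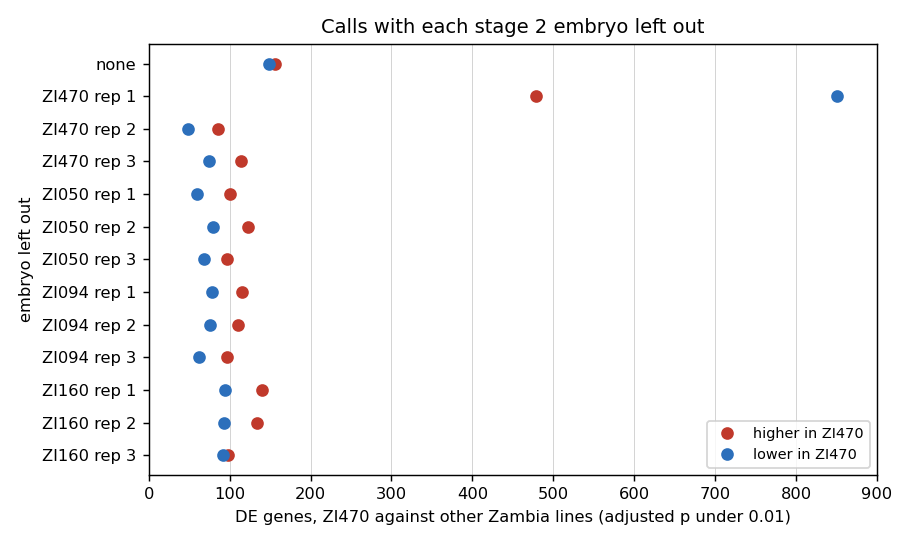
Number of DE genes (adjusted p under 0.01) in ZI470 against the other Zambia lines at stage 2 when no embryo or 1 embryo, named on the vertical axis, is left out. Red points count genes higher and blue points genes lower in ZI470. Without ZI470 replicate 1 the counts are 479 and 851, against 156 and 149 with all embryos.

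Of the 479 higher genes 428 were also tested with 3 embryos, as were all 851 lower genes. The others had passed the filter on low counts only without replicate 1. The median change was 0.74 for the 479 higher and -0.59 for the 851 lower genes on the log2 scale, with median levels of 20.7 and 63.3 CPM. Past 2-fold were 203 of the higher genes and 180 of the lower, and past 16-fold 56 and 11. These medians and counts include the higher genes that passed the filter only without replicate 1. The 2 directions are therefore not on 1 footing. The share of DE genes was 19.9% on the X, 21.2% on 2L, 18.3% on 2R, 15.4% on 3L, 15.9% on 3R and 14.1% on chromosome 4, so every arm held them. Of 144 long noncoding RNAs (131 also tested with 3 embryos) 19 were higher and 5 lower (16.7%). Of 103 pseudogenes 4 were higher and 10 lower (13.6%), and both shares were below the 18% of all genes.

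A first group of genes set all 3 ZI470 embryos apart, replicate 1 included. Of the genes DE in both fits, 180 had all 3 ZI470 embryos outside the range of the 9 others, 69 above and 111 below. Of all 7242 genes 425 (5.87%) had no overlap in this sense. The largest changes in each direction, with at least 5 CPM in the higher group, are described here.

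The largest of these differences was in nrm, which encodes neuromusculin, an immunoglobulin-family adhesion protein (3L, 22998372 to 23040300). It had 8.63, 98 and 97.9 CPM in ZI470 replicates 1, 2 and 3, against 0.0812 to 1.01 CPM (median 0.172) in the other Zambia lines. Raleigh stage 2 embryos had 0.139 to 231 CPM of nrm (median 0.733), so a high level was not particular to ZI470. The log2 difference was 7.84 ± 0.64 (SE) with 3 embryos (edgeR adjusted p = 6.26e-05) and 8.36 ± 0.26 without replicate 1 (edgeR adjusted p = 1.95e-09). Replicate 1 was above every stage 2 embryo of the other Zambia lines, yet far below both of its sisters. The same order was seen in mtg, a chitin-binding domain protein of the synapse, which had 1.7, 11 and 12 CPM in ZI470, against 0.0343 to 0.356 CPM in the other lines (log2 difference 6.36 ± 0.24 without replicate 1).

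In Galphaf, RhoU and Atf3 the 3 ZI470 embryos agreed. Galphaf, a G protein alpha subunit, had 4.63, 4.86 and 5.6 CPM in ZI470, against 0.0687 to 1.14 CPM. RhoU, a small GTPase, had 14.9, 12.9 and 15.9 CPM, against 0.677 to 4.38 CPM, a log2 difference of 2.83 ± 0.20 with 3 embryos and 2.80 ± 0.21 without replicate 1. The bZIP transcription factor Atf3 had 13.6, 15.4 and 13.4 CPM, against 2.72 to 7.73 CPM. No ZI470 embryo overlapped with the other Zambia lines for these genes, as the choice of this group required.

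For 6 further higher genes replicate 1 was the highest embryo. CG12991 had 146, 3.41 and 3.03 CPM in ZI470, against 0.873 to 2.11 CPM in the other lines, so its log2 difference was 5.27 ± 0.86 with 3 embryos and 1.26 ± 0.19 without replicate 1. Shrm, an actin-binding regulator of apical constriction, had 55.7, 3.38 and 1.71 CPM, against 0.371 to 0.934 CPM. The synaptotagmin-like gene btsz had 132, 15.5 and 19.3 CPM, against 4.38 to 9.71 CPM. The gene rgn had 102, 37.4 and 28.4 CPM, against 1.01 to 7.1 CPM, and cv-d, a vitellogenin-like protein of wing vein signalling, had 43.4, 14.8 and 20.8 CPM, against 1.39 to 13.9 CPM. FBgn0003328, which the annotation used here does not name, had 22.8, 1.31 and 2.67 CPM, against 0 to 0.356 CPM. Raleigh stage 2 embryos reached 66.9 CPM of FBgn0003328. The sisters were above the other Zambia lines for each of these genes, as the choice required, by less than replicate 1.

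Genes lower in all 3 ZI470 embryos were led by GstE1, a glutathione S-transferase of detoxification (2R, 18398393 to 18399223). It had 0.566, 1.05 and 1.21 CPM in ZI470, against 2.02 to 25.3 CPM (median 19.4) in the other lines, a log2 difference of -3.47 ± 0.21 with 3 embryos (edgeR adjusted p = 1.35e-05) and -3.22 ± 0.17 without replicate 1. Within the other lines ZI050 was low, at 2.02 to 2.89 CPM. Mal-B2, a maltase, had 8.03, 3.67 and 3.42 CPM, against 13.1 to 33.8 CPM. CG7565 had 13.5, 20.9 and 24.7 CPM, against 53.1 to 82 CPM, and the snoRNA host gene Uhg3 had 10.5, 7.48 and 11.8 CPM, against 22.5 to 30.7 CPM. These 4 genes passed the test in every contrast of ZI470 with a single other line. CG6470 did not pass in every single contrast. It had 0.212, 0.262 and 0.321 CPM in ZI470, against 0.379 to 1.17 CPM in ZI050 and ZI094 and 46.4 to 48.5 CPM in ZI160.

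CG10877 had 0.743, 1.54 and 1.32 CPM, against 3.49 to 6.96 CPM. Ten-a, a teneurin of cell recognition, had 3.57, 9.71 and 10.6 CPM, against 12.3 to 74.3 CPM. CG10654 had 3.71, 1.61 and 2.82 CPM, against 6.05 to 12.3 CPM. The next 3 genes were ldd, lncRNA:CR46268 and CG4098, with log2 differences of -1.39 ± 0.18, -1.42 ± 0.21 and -1.34 ± 0.21 with 3 embryos. CG5568 had 27.3, 70.6 and 71.8 CPM, against 111 to 158 CPM. Its call with 3 embryos was lost when any 1 of the 11 embryos other than replicate 1 was left out, with edgeR adjusted p between 0.01054 and 0.01498. Most such omissions also ended the calls of Ten-a and CG12991 with 3 embryos, where edgeR adjusted p reached 0.01873 and 0.01161.

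A second group of genes was called in the fit without replicate 1 and not in that with it. Of the higher ones named here gNacalpha, CG17919, Cht7 and FBgn0259822 passed the filter on low counts only without replicate 1, so they were not tested with 3 embryos. These 4 genes met the filter through the sisters, where they were high, so their levels are given as a description. The gene gNacalpha, a subunit of the nascent polypeptide-associated complex, had 0.106 CPM in replicate 1 and 53.8 and 55.6 CPM in its sisters, against at most 0.0812 CPM in the other lines. CG17919 had 0.141 CPM in replicate 1 and 24.9 and 26 CPM in its sisters, against at most 0.172 CPM in the other lines. Cht7, a chitinase-like gene, had 0.0354 CPM in replicate 1 and 10.4 and 7.59 CPM in its sisters, against at most 0.139 CPM. FBgn0259822, not named in the annotation, had 0.106 CPM in replicate 1 and 13.9 and 24.4 CPM in its sisters, against at most 0.134 CPM. Raleigh stage 2 embryos reached 64.6 CPM of FBgn0259822. Epac, a cAMP-activated exchange factor, had 0.0354 CPM in replicate 1 and 20.9 and 18.6 CPM in its sisters, against 0.139 to 7.1 CPM in the other lines. Its log2 difference was 3.84 ± 0.85 with 3 embryos (edgeR adjusted p = 0.0152) and 4.43 ± 0.37 without replicate 1 (edgeR adjusted p = 7.62e-06). Replicate 1 had at most 0.141 CPM of these 5 genes and its sisters at least 7.59 CPM. They were picked as called only without replicate 1, so this distance follows from the choice.

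Among the losses, picked in the same way, replicate 1 was also unlike its sisters, as the choice requires. Arc1, whose protein forms capsids of retroviral Gag type, and the adjacent pseudogene CR10102 (2R, 14357927 to 14361780) were nearly absent in the sisters. Arc1 had 122 CPM in replicate 1 and 0.459 and 0.285 CPM in its sisters, against 28.6 to 220 CPM (median 112) in the other lines, a log2 difference of -7.90 ± 0.33 without replicate 1 (edgeR adjusted p = 2.14e-08) and -1.12 ± 1.07 with it (edgeR adjusted p = 0.512). CR10102 had 47.4 CPM in replicate 1 and 0.23 and 0.0713 CPM in its sisters, against 11.4 to 84.7 CPM. Both lie side by side and may share reads, so they are not separate evidence. CG4267 had 12.4 CPM in replicate 1 and 0.0984 and 0.107 CPM in its sisters, against 21.9 to 46.1 CPM (edgeR adjusted p = 1.05e-08 without replicate 1). CG43689 had 4.92 CPM in replicate 1 and 0.131 and 0.0713 CPM in its sisters, against 0.605 to 16.4 CPM. CG5937 had 2.72 CPM in replicate 1 and 0.0656 and 0 CPM in its sisters, against 0.213 to 0.79 CPM in ZI050 and ZI094 and 24.4 to 80.2 CPM in ZI160.

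**Figure D3:**
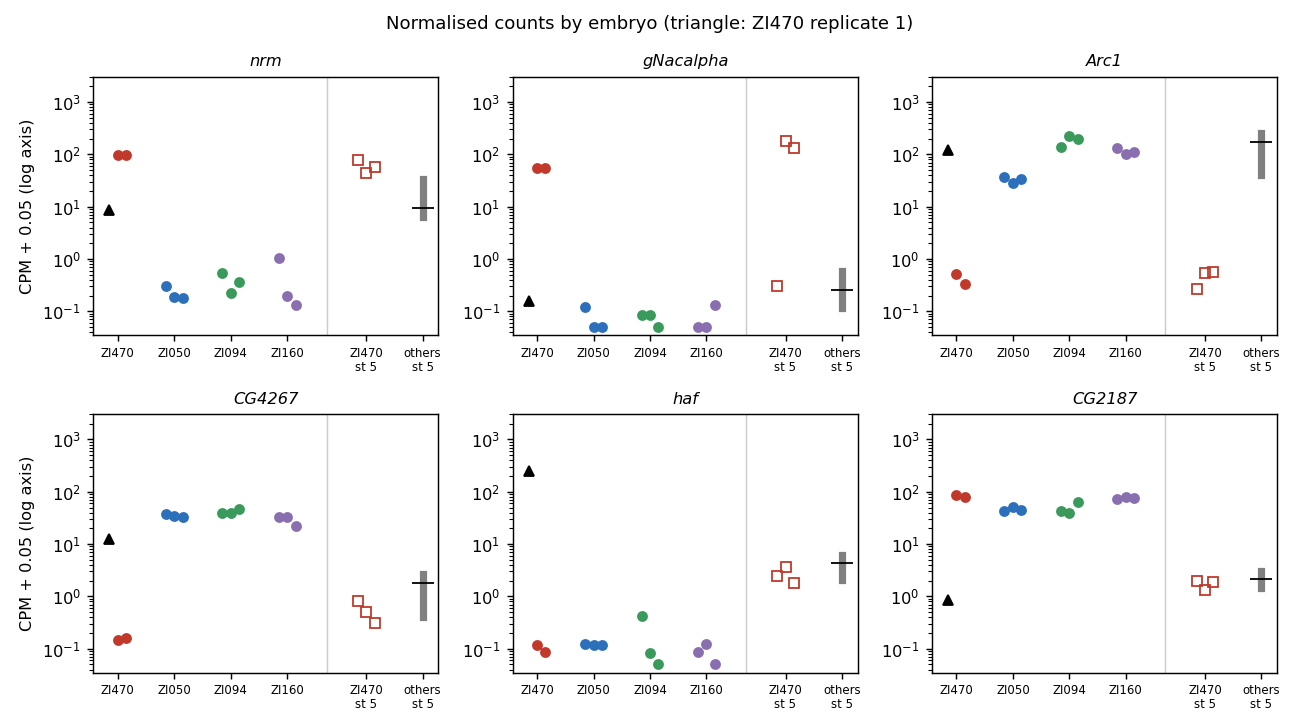
CPM plus 0.05 on a log axis for 6 genes in each stage 2 embryo of ZI470 (red, with replicate 1 as a black triangle), ZI050, ZI094 and ZI160, then in the 3 ZI470 embryos of stage 5 (open squares) and, as range and median, the 9 other Zambia embryos of stage 5. Replicate 1 has 0.106 CPM of gNacalpha and 122 CPM of Arc1, far from its sisters, and is far from all 11 other stage 2 embryos for haf (254 CPM) and CG2187 (0.813 CPM).

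Genes that marked ZI470 at both stages numbered 4, with the sisters and the 3 ZI470 embryos of stage 5 at least 5-fold above or below the 9 other Zambia embryos of either stage. They were CG17919, Cht7, Arc1 and CR10102, and replicate 1 was inside the range of the other lines for each. CG17919 had 47.6, 37.7 and 50 CPM in the ZI470 embryos of stage 5, against 0.318 to 1.11 CPM in the other Zambia lines. Arc1 had 0.214, 0.488 and 0.525 CPM, against 40.8 to 261 CPM. By contrast gNacalpha was split within ZI470 at stage 5, with 0.25, 177 and 134 CPM in replicates 1, 2 and 3, against 0.0671 to 0.543 CPM in the other lines.

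Transcripts cleared at the maternal-to-zygotic transition were more often lower than other genes in the sisters. Genes were classed by their change from stage 2 to stage 5 in the Raleigh lines, which enter no contrast of ZI470. Of 1453 tested genes that fell at least 4-fold in Raleigh, 348 (24%) were lower and 49 (3.37%) higher in ZI470 without replicate 1. Over all 7375 tested genes these shares were 11.5% and 6.49%. Of the genes that rose at least 4-fold in Raleigh, 328 were tested in both fits, of which 17 (5.18%) were lower and 31 (9.45%) higher without replicate 1, beside 11.8% and 5.91% of all 7242 such genes. A further 44 rising genes passed the filter only without replicate 1, and with them the higher genes numbered 55. That number was 15 under a stricter filter and 30 with the other embryos as 1 group. The rising genes summed to 5267 and 5033 CPM in the sisters, inside the 4760 to 5598 CPM of the other lines. Under every alternative to the fit without replicate 1, the share of falling genes that was lower in ZI470 stayed above that of all genes. It was 9.98% against 4.36% when ZI470 replicate 2 was also left out. With 3 embryos the shares of falling genes were 3.72% lower and 1.52% higher, beside 2.06% and 2.15% of all genes. The falling genes summed to 235496 and 243430 CPM in the sisters and to 260912 CPM in replicate 1, against 255254 to 266112 CPM in the other lines. The sum was lower in each sister than in every other embryo, and replicate 1 lay with the other lines. A lower deposit and an earlier loss of these transcripts cannot be told apart in these embryos.

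**Figure D4:**
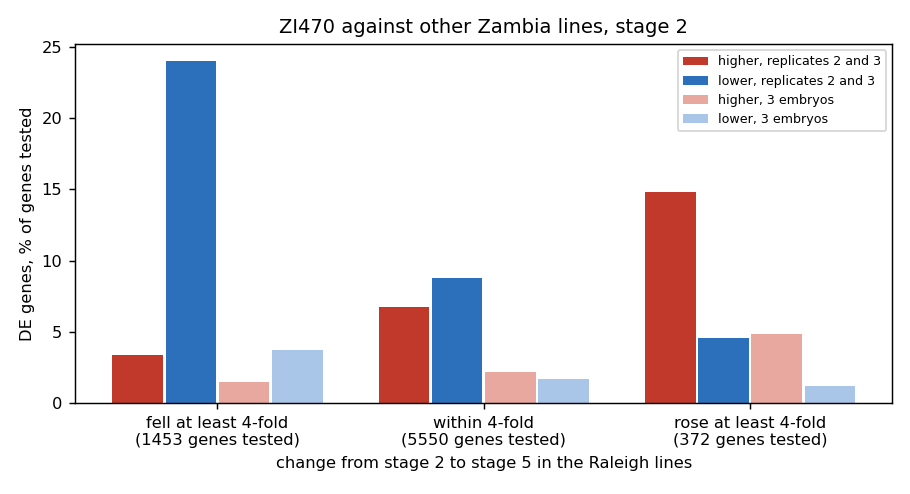
Share of tested genes that were higher or lower in ZI470 than in the other Zambia lines at stage 2 (adjusted p under 0.01), for genes classed by their change from stage 2 to stage 5 in the Raleigh lines. Dark bars use ZI470 replicates 2 and 3 and pale bars all 3 embryos, and the gene numbers are those tested without replicate 1. Of genes that fell at least 4-fold 24% were lower without replicate 1 and 3.72% with 3 embryos. The bars for rising genes include 44 genes that passed the filter only without replicate 1.

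Early zygotic genes, a list of 26 genes among the first to be transcribed by the embryo, were also counted. Of 12 tested in both fits, 3 were higher and 0 lower without replicate 1, beside 5.91% of all genes tested in both, and 2 were higher and 0 lower with 3 embryos, beside 2.15%. The list median was 0.36 on the log2 scale without replicate 1. The 25 listed genes in the count table summed to 217 and 253 CPM in the sisters and 227 CPM in replicate 1. Both sisters were inside the range of the other lines for this sum, 213 to 269 CPM. A further 7 genes passed the filter only without replicate 1, and with them 8 of 19 were called higher. That count was 5 when ZI470 replicate 2 was also left out and 0 under a stricter filter. The genes sc, sisA, nullo, bnk and amos are among those 7, and their levels are given as a description. The proneural gene sc, also an X-linked signal of sex determination, had 0, 0.886 and 1.07 CPM in ZI470 replicates 1, 2 and 3, with no count in any of the 9 other embryos, so the sisters were at least 7.27-fold higher. The X-linked sex determination gene sisA had 0.0354, 1.44 and 3.49 CPM, against 0.0336 to 0.244 CPM in the other lines. The cellularisation gene nullo had 0, 1.05 and 0.927 CPM in ZI470, against at most 0.0343 CPM in the other lines. A further cellularisation gene, bnk, had 0.0354, 2.72 and 1.35 CPM in ZI470, against at most 0.142 CPM. The proneural gene amos had 0, 2.26 and 2.1 CPM, against at most 0.0356 CPM. Replicate 1 was inside the range of the other lines for these 5 genes.

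The mesoderm gene sna had 0.53, 2.07 and 1.18 CPM in ZI470, against 0.142 to 0.627 CPM in the other lines, and eve, a pair-rule gene, had 0.636, 0.919 and 0.749 CPM, against 0.111 to 0.406 CPM. The dorsal gene zen had 0.177, 1.15 and 0.891 CPM, against 0.174 to 0.631 CPM. These levels were low beside those of stage 5, where the ZI470 embryos had 186 to 210 CPM of sna and 178 to 198 CPM of eve. The only run of 4 or more adjacent DE genes of 1 direction lay on 2L (13224620 to 13244724) and held CG15480, CG16813, CG16815 and asRNA:CR45330, of which the first 3 were tested only without replicate 1. In it CG16815 had 0, 3.67 and 3.49 CPM in ZI470, against at most 0.321 CPM in the other lines, and 27.4, 18.6 and 25.1 CPM in the ZI470 embryos of stage 5. The age of each embryo within stage 2 is not labelled, so line and age cannot be told apart for these genes.

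**Figure D5:**
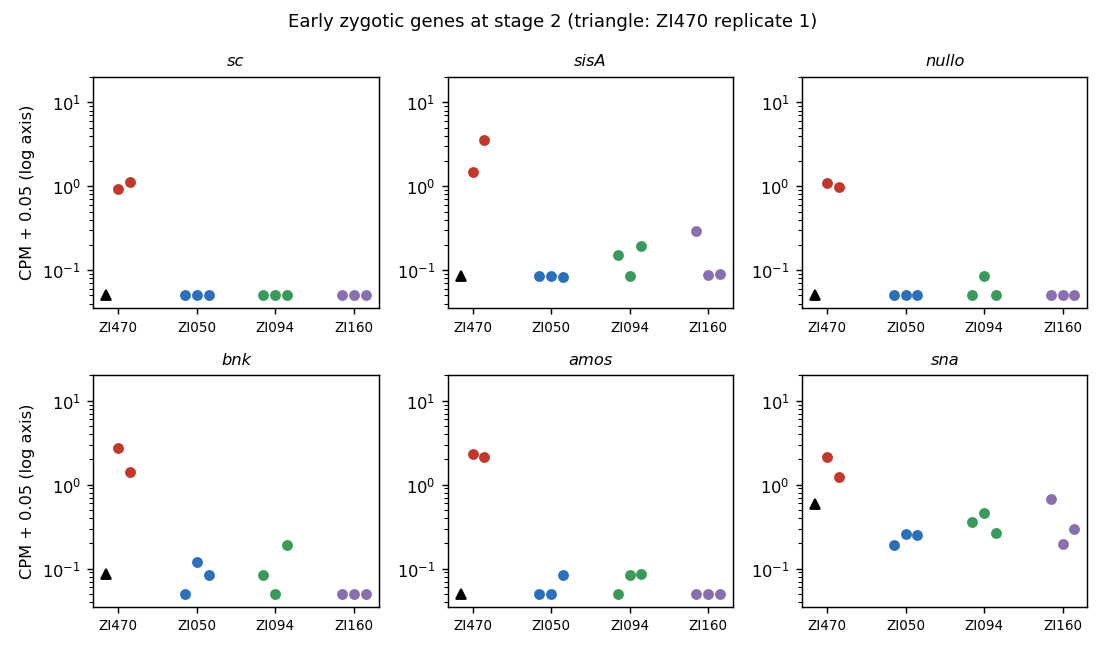
CPM plus 0.05 on a log axis for 6 early zygotic genes in the stage 2 embryos of ZI470 (replicate 1 as a black triangle), ZI050, ZI094 and ZI160. Points at 0.05 have no count. The genes were picked by their values, sisA, bnk and sna after these were seen. ZI470 replicates 2 and 3 lie above every other Zambia stage 2 embryo for each gene, which follows from this choice. For sna they had 2.07 and 1.18 CPM, against at most 0.627 CPM in the other Zambia lines.

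Maternal determinants and the egg activation machinery were counted in the same way. Of 27 tested genes of the axis and germ plasm, 0 were higher and 6 lower without replicate 1 (22.2%, beside 18% of all genes), and 2 were lower with 3 embryos. The list median was -0.08 on the log2 scale. The bcd localisation factor exu had 877, 433 and 543 CPM in ZI470, against 712 to 1132 CPM (median 861) in the other lines, a log2 difference of -0.85 ± 0.13 without replicate 1 (edgeR adjusted p = 0.000407). The germ plasm helicase vas had 262, 207 and 260 CPM, against 269 to 475 CPM, and was lower in both fits. The germ plasm protein tud had 588, 316 and 349 CPM, against 295 to 566 CPM. Of 23 egg activation and RNA clearance genes 3 were lower and 0 higher without replicate 1 (13%, beside 18%), and none was DE with 3 embryos. They were cort, a meiotic activator of the anaphase-promoting complex, with 99.1, 32.1 and 44 CPM against 47.8 to 92.6 CPM, png, a kinase of egg activation, with 91.5, 52.8 and 59 CPM against 70.2 to 104 CPM, and brat, a translational repressor, with 1034, 683 and 645 CPM against 757 to 1057 CPM. None of the 7 zygotic genome activators, zld among them, was DE without replicate 1 by edgeR, and none had an unadjusted p under 0.05.

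Germline and cell cycle genes were counted next. Of 23 genes of the germline piRNA pathway, which silences transposons, 4 were higher and 4 lower without replicate 1 (34.8%, beside 18% of all genes), and 1 was higher and 2 lower with 3 embryos. The heterochromatin protein gene rhi had 87.6, 152 and 171 CPM in ZI470, against 78 to 134 CPM in the other lines, and aub, a Piwi-family protein, had 106, 171 and 182 CPM, against 92.2 to 164 CPM. The co-chaperone shu had 77.6, 46 and 58.9 CPM, against 73.7 to 100 CPM, and krimp had 169, 153 and 165 CPM, against 164 to 305 CPM. Of 29 cell cycle genes 1 was higher and 2 lower without replicate 1 (10.3%, beside 18%), and 26 did not pass the test. With 3 embryos 1 was higher and 0 lower. Higher without replicate 1 was the kinase gene Cdk1, with 179, 182 and 177 CPM, against 89.9 to 200 CPM, where ZI160 alone was low (89.9 to 92.1 CPM). Lower were the checkpoint kinase gene mei-41, with 135, 84.9 and 95.2 CPM, against 117 to 141 CPM, and the replicative helicase gene Mcm3, with 300, 231 and 264 CPM, against 286 to 334 CPM.

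The detoxification genes fell into 2 families. Of 24 glutathione S-transferases 2 were higher and 7 lower without replicate 1 (37.5%, beside 18% of all genes), with a list median of -0.21 on the log2 scale, and 1 was lower with 3 embryos. Their summed level was 736 and 849 CPM in the sisters and 1633 CPM in replicate 1, against 1307 to 1948 CPM in the other lines. GstD1 had 866, 261 and 355 CPM in ZI470, against 719 to 1164 CPM, a log2 difference of -1.57 ± 0.14 without replicate 1 (edgeR adjusted p = 1.35e-05). GstE9 had 3.61, 0.131 and 0.214 CPM, against 0.655 to 7.17 CPM, and GstE6 had 64.6, 25.1 and 26.8 CPM, against 43.5 to 155 CPM. GstD10 was higher, with 0.354, 0.656 and 0.642 CPM, against 0.0371 to 0.356 CPM. Of 24 cytochrome P450 genes 1 was higher and 3 lower (16.7%, beside 18%). Cyp6a19 had 579, 133 and 171 CPM in ZI470, against 480 to 771 CPM, and Cyp6a13 had 0.389, 4.07 and 3.67 CPM, against 0 to 0.896 CPM. Raleigh stage 2 embryos reached 19.9 CPM of Cyp6a13. Cyp12d1-d had 0.495, 5.25 and 5.63 CPM, against 2.47 to 34.5 CPM, and may share reads with its near-identical copy Cyp12d1-p. In GstD1 and Cyp6a19 replicate 1 lay with the other lines.

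Of 18 heat shock genes tested, 3 were higher and 3 lower without replicate 1 (33.3%, beside 18% of all genes) and none was DE with 3 embryos. Hsp70Ab had 2.62, 24.8 and 132 CPM in ZI470, against 0.854 to 202 CPM in the other lines, where the 3 embryos of ZI160 had 92.4 to 202 CPM and the other 6 at most 4.5 CPM. The near-identical Hsp70Aa followed it, at 2.48, 22.3 and 124 CPM in ZI470, and their reads cannot be told apart. Hsp70Ba had 0.177, 1.67 and 6.24 CPM, against 0.137 to 11.6 CPM. The small heat shock gene Hsp23 had 37.9, 15.3 and 10.9 CPM, against 15.7 to 229 CPM. ZI470 was thus inside the range of the other lines for the Hsp70 genes, and the call rests on an average over lines that differ.

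The genes of housekeeping complexes were set beside the 18% of all genes that were DE without replicate 1. None of 81 cytosolic ribosomal protein genes was DE by edgeR without replicate 1, and 15 had an unadjusted p under 0.05. Of 71 mitochondrial ribosomal protein genes 1 was higher and 7 lower (11.3%). They included mRpL43, with 18.2, 9.65 and 11 CPM against 17.7 to 23.7 CPM, and mRpL47, with 36.5, 25.2 and 26.8 CPM against 35.4 to 41.9 CPM. Of 34 proteasome genes 7 were lower and 0 higher (20.6%), among them the deubiquitinase subunit Rpn11, with 251, 141 and 158 CPM against 216 to 276 CPM, and Rpn7, with 210, 150 and 162 CPM against 153 to 286 CPM. Of 60 nuclear genes of oxidative phosphorylation 5 were higher and 2 lower (11.7%). The complex I subunit ND-15 had 47.7, 52.8 and 59.1 CPM, against 36.1 to 43.1 CPM, and passed in every contrast with a single line. The complex III core gene UQCR-C2 had 195, 105 and 124 CPM, against 164 to 194 CPM, and ND-MWFE of complex I had 2.4, 7.68 and 8.24 CPM, against 1.85 to 5.08 CPM. Of 16 mitochondrially encoded genes only mt:ATPase6 was DE by edgeR without replicate 1, with 252, 226 and 234 CPM, against 200 to 400 CPM.

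Of 7 tubulin genes 2 were lower (28.6%, beside 18% of all genes), both of them maternal forms. The maternal alpha-tubulin alphaTub67C had 647, 421 and 491 CPM in ZI470, against 657 to 788 CPM, and the maternal gamma-tubulin gammaTub37C had 150, 98.9 and 120 CPM, against 129 to 221 CPM. Of 44 translation factors 1 was higher and 4 lower (11.4%), led by eIF3j, with 118, 70.7 and 85.5 CPM against 121 to 149 CPM. None of 3 actin genes was DE by edgeR or had an unadjusted p under 0.05. Of 93 histone genes 10 were higher and 31 lower without replicate 1 (44.1%) and 1 was higher and 17 lower with 3 embryos, but the replication-dependent histones are repeated copies whose reads cannot be assigned to single genes. Of 3 immune genes tested 1 was higher (33.3%), the Toll adaptor Myd88, with 71.1, 87.9 and 93.7 CPM, against 70.3 to 83.3 CPM. Of the pseudogenes CR46186, annotated on the Y, had no count in the 3 ZI470 embryos, against 0.0343 to 1.26 CPM in the other lines, which is at most 34 counts. Of the long noncoding RNAs lncRNA:Irar had 0.46, 0.755 and 0.856 CPM in ZI470, against 0 to 0.284 CPM, and asRNA:CR46047 had 0, 1.18 and 1.89 CPM, against at most 0.0371 CPM and was tested only without replicate 1. Replicate 1 was nearer to the other lines than to its sisters for alphaTub67C, Rpn11, UQCR-C2, eIF3j and mRpL43.

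Genes that separate ZI470 from each of the other lines singly were fewer. In contrasts with ZI050, ZI094 and ZI160, 364, 418 and 348 genes were DE with 3 embryos and 1382, 1331 and 1344 without replicate 1. Those DE in 1 direction in all 3 contrasts numbered 33 of 7242 (0.456%) with 3 embryos, 15 higher (0.207%) and 18 lower (0.249%), and 521 of 7375 (7.06%) without replicate 1, 103 higher (1.4%) and 418 lower (5.67%). The 3 contrasts share the ZI470 embryos. For scale, ZI050, ZI094 and ZI160 each set against the 3 other lines gave 1329, 1152 and 1049 DE genes when replicate 1 was left out, and 538, 584 and 480 with it, while ZI470 gave 1330 and 305.

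Stage 5 gave an independent set of embryos for the same contrast, all XY by the authors' account, while those of stage 2 are of unknown sex. At stage 5, 2252 of 9371 genes (24%) were DE between ZI470 and the other Zambia lines, 1215 higher (13%) and 1037 lower (11.1%). Of the 298 genes DE at stage 2 with 3 embryos and tested at stage 5, 111 were DE in the same and 11 in the opposite direction. Of the 1296 such genes without replicate 1, 373 (28.8%) were DE in the same direction and 72 in the opposite one. The sign alone was shared by 67.4% and 64.3% of these genes, and by 57.1% of all genes tested at both stages. GstE1 was lower at both stages, with 1.36, 3.08 and 1.84 CPM in the ZI470 embryos of stage 5, against 3.94 to 40.6 CPM in the other lines. Mal-B2 had 6.35, 6.19 and 5.51 CPM at stage 5, against 11.7 to 55.4 CPM, and rgn had 12.7, 15.1 and 23 CPM, against 2.47 to 7.75 CPM. The ZI470 and other embryos did not overlap at stage 5 for these 3 genes.

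RhoU, btsz and CG7565 differed at stage 2 and did not pass the test at stage 5. RhoU had 77.2, 88.2 and 73 CPM in ZI470 at stage 5, against 60.1 to 75.7 CPM, and btsz had 1857, 2042 and 1781 CPM, against 1597 to 2076 CPM. CG7565 had 13.9, 15.2 and 12.6 CPM, against 9.03 to 16.6 CPM. The stage 5 difference had edgeR adjusted p = 0.0227 for RhoU, 0.908 for btsz and 0.392 for CG7565. The difference between the stage 2 and the stage 5 contrast passed the test for 1215 genes with 3 embryos and for 1374 of 9810 without replicate 1.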

How the data were processed

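Single embryos were homogenised for total RNA and sequenced as stranded mRNA libraries. According to the submitters' notes reads were trimmed with cutadapt, aligned with HISAT2 2.1.0 and counted with featureCounts, and the authors deposited raw counts per gene with no normalisation. Replicate numbers and lines were taken from the sample titles, and no label states that embryos shared a mother, so p-values measure the spread between embryos. Gene names came from an annotation of release 6.54, newer than that of the authors. Of 17481 identifiers 17343 matched, and the rest held 1.23% of the Zambia stage 2 counts.

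ZI470 was set against the mean of the 3 other Zambia lines with edgeR 4.0.16 (R 4.3.3, limma 3.58.1), by the quasi-likelihood F-test with line as factor, TMM normalisation, low genes removed (count minimum 10, total minimum 15), and Benjamini-Hochberg adjusted p under 0.01. CPM were scaled by TMM over the 24 stage 2 embryos and, at stage 5, over the 12 Zambia embryos. Floors cover counting error only, and standard errors are those of the edgeR fit. On simulated counts of 7242 genes with 200 changed 4-fold at a dispersion of 0.02, 198 were recovered with 3 ZI470 embryos and 197 without replicate 1. False calls numbered 1 and 4. The simulated replicate 1 was like its sisters, so these values do not measure the effect of the real embryo. Alternatives were DESeq2 1.42.0, its size factors, other filters and thresholds, other sets of samples, a replicate block and the omission of each embryo. Tables and figures used Python 3.11.15, pandas 2.3.3 and numpy 2.4.6.

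Named genes were the 12 largest changes per direction among genes DE in both fits without overlap, the 6 most above and below the sisters in replicate 1, up to 3 DE genes per list, the stage markers, and the 5 largest changes per direction DE without replicate 1 only, with a minimum of 5 CPM in the higher group. The genes sisA, bnk, sna, Hsp23, GstD1, GstS1, GstE6, aub, krimp, hb, pip, vri, melt, bowl, CG15544, Osi2 and those of the run on 2L were named after their values were seen, as were the thresholds for genes on in 1 embryo, marking a line or changing between stages. The members and gene lists were chosen with earlier results of these data known. One gene that the rule names is not reported here.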

Additional observations from a re-analysis of the deposited data

Results flagged for a closer look

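For 18 of the 33 genes named for the largest changes, the ZI470 contrast at stage 2, without replicate 1, differed from that at stage 5 by the edgeR test of the difference. The values of 17 of them, given below, are the stage 2 minus the stage 5 contrast on the log2 scale. Among genes higher in ZI470 at stage 2 the difference was 6.19 for nrm, 4.85 for mtg, 3.68 for FBgn0003328, 2.62 for CG12991, 1.65 for Shrm and 1.39 for rgn. It was 1.57 for btsz, 2.61 for RhoU, 2.21 for Atf3, 2.49 for CG17919 and 5.17 for Epac. Among genes lower in ZI470 at stage 2 it was -1.33 for Ten-a, -1.63 for CG7565, -2.08 for CG4098, -0.92 for CG5568, -6.82 for CG4267 and -4.37 for CG5937. Of the other named genes 35 of 81 also passed this test, and of all genes tested 1374 of 9810. Both sets of named genes were picked largely by their stage 2 values, which favours a difference between the stages.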

How the results depend on the processing

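Counts of DE genes with 3 embryos were the least stable. Genes higher in ZI470, 156, became 499 at an adjusted p under 0.05, 378 by the DESeq2 Wald test, 18 with the other embryos as 1 group and 399 in a fit of all 24 stage 2 embryos. Genes lower, 149, became 535, 484, 11 and 254 under these 4 settings. With 1 embryo left out they ranged from 86 to 479 higher and from 48 to 851 lower. Genes DE against each line singly became 51 higher and 86 lower at 0.05, and ranged from 7 to 103 and from 6 to 418 with 1 embryo left out. Without replicate 1 the counts were 918 higher at 0.05, and 93 higher and 375 lower with 1 group of other embryos, and ranged from 218 to 610 and from 329 to 837. Genes setting replicate 1 apart became 149 higher and 84 lower with a mean of at least 1 CPM.

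Lower calls among genes falling in Raleigh, higher calls among rising genes and higher early zygotic genes became 163, 30 and 5 with 1 group of other embryos. They ranged from 145 to 346, from 35 to 58 and from 5 to 9 with 1 embryo left out. A stricter filter, which tests fewer low genes, gave 15 rising and 0 early zygotic genes. These counts were chosen after seeing the data. Shared direction at stage 5 ranged from 92 to 114 and from 290 to 375 genes, and the stage difference was 1374 genes without replicate 1.

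Same-numbered embryos of different lines correlated between -0.128 and 0.117, above 0.1 in 2 of 18 pairs, so the numbers did not pair them. With the replicate number as a block 94 genes were higher and 119 lower with 3 embryos, and 406 and 747 without replicate 1. Of 201 values of named genes 180 kept their side of the threshold under the block.

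Signs turned for CG2187 with 3 embryos under the stricter filter (0.0074) and in the fit of 24 embryos (0.00041), and for Hsp70Ba with 1 group (-0.24). With 1 embryo left out the log2 difference with 3 embryos ranged from -0.47 to 0.56 for CG2187, from -0.82 to 0.33 for SP1029, from -0.66 to 0.32 for CG32095, from -0.96 to 4.65 for Tep4 from -0.47 to 0.056 for tud and from -1.02 to 0.057 for GstS1. It ranged from -0.35 to 0.10 for bcd, and from -0.11 to 0.30 for bcd without replicate 1. The cause was not tested. Levels under 0.122 CPM rest on 3 counts or fewer.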
